A study of Sus scrofa with 2 samples.

Results

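The miR-15, miR-16, miR-195 and miR-497 miRNAs were followed in small RNA of whole testis from Junmu-1 boars, a white Chinese pig breed. The 180-day library was made from pooled testis RNA of 3 sexually mature boars, and the 30-day library from pooled testis RNA of 3 sexually immature boars. No treatment or genotype difference is given in the labels, and with 1 library per age there was no replicate spread and no test. Members were all listed miRNA names that reduce to miR-15, miR-15a, miR-15b, miR-16, miR-16a, miR-16b, miR-195 or miR-497 once the species prefix, the copy number and the arm are set aside. The rule found 12 of the 1385 names and arms in the lists, with 42039 of 8377934 reads. A star after a name denotes the less abundant arm of a precursor hairpin.

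These miRNAs form a family with a shared seed, the bases of a miRNA that pair with its target mRNAs. In human and mouse cells the family is known to repress cyclins and other genes of the cell cycle, and miR-15a and miR-16 are known to repress the survival gene BCL2. Their genes sit in pairs: in the RefSeq annotation of Sscrofa11.1, MIR15A is next to 1 of the copies of MIR16, MIR15B and the other copy of MIR16 lie together inside the gene SMC4, and MIR195 and MIR497 lie together inside a long noncoding RNA gene. Both copies give the same main arm of miR-16, so its reads cannot be assigned to either pair.

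The entries that the lists matched are shown to make the shared and the separating bases visible, in DNA letters and 5′ to 3′, with the seed (bases 2 to 8) in capitals. Since 0 of the member tags in either list carried a pig name, the entries are those of human (miR-15a, miR-16), mouse (miR-15b), cattle (miR-195) and rat (miR-497).
miR-15a: tAGCAGCAcataatggtttgtg
miR-15b: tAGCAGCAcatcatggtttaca
miR-16: tAGCAGCAcgtaaatattggcg
miR-195: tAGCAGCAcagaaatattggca
miR-497: cAGCAGCAcactgtggtttgta

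The 5 entries are identical over the seed and differ after it. Positions are counted from 1 at the 5′ end, with the base of the first-named miRNA written first. miR-16 and miR-195 are the closest pair, with 3 differing bases of 22 (G10A, T11G and G22A), and miR-15a and miR-15b differ at 4 (A12C, G20A, T21C and G22A). The name miR-16b belongs mostly to a cattle entry equal to miR-16 without its last base, so miR-16b tags are mainly a shorter form of miR-16. Reads that carried exactly 1 of the bases separating miR-16 from miR-195 within the first 20 bases were rare. In the 180-day library they were 5 of 4478 miR-16 reads (miR-16b included) and 1 of 1471 miR-195 reads, and in the 30-day library 30 of 17985 and 17 of 5905. Within the first 20 bases, reads of this closest pair are separated by 2 bases.

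The 180-day library held 852209 miRNA-matched reads and the 30-day library 7525725. Levels are given as RPM (miRNA-matched reads of a name scaled to a common library total of 1e6), so they describe a share of the miRNA pool and 3 reads are 3.52 RPM in the 180-day library and 0.399 RPM in the 30-day library. Ratios are 180-day over 30-day. Their exact 95% intervals, like all intervals given here, reflect counting error alone, since the libraries have no molecular identifiers and PCR copies are not independent molecules. A name was called higher at a ratio of 2 or more, and lower at 0.5 or less, with an interval excluding 1. If the tag numbers are read as abundance ranks, miRNA-matched reads were at most 7.08% of the 180-day and at most 59.2% of the 30-day library. With the lowest totals that these numbers allow, every log2 ratio would shift by -3.06. In bulk tissue, fewer cells of a type and less RNA per cell cannot be told apart.

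Together the members took a larger share of the miRNA pool of mature testis. They had 7942 reads (9319 RPM) in the 180-day library and 34097 reads (4531 RPM) in the 30-day library. As a share of the pool this was 0.932% (exact 95% interval 0.912 to 0.953%) at 180 days and 0.453% (0.448 to 0.458%) at 30 days, a ratio of 2.06 (2.01 to 2.11). The main arms supplied nearly all of it, with 7892 reads in the 180-day and 33998 in the 30-day library.

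miR-16, the most abundant member, had 4203 reads (4932 RPM) in the 180-day and 16627 reads (2209 RPM) in the 30-day library. Its ratio was 2.23 (2.16 to 2.31), and it ranked 34th of all names by reads at 180 days and 48th at 30 days. The shorter form listed as miR-16b had 275 reads (323 RPM) and 1358 reads (180 RPM) in the 180-day and the 30-day library, a ratio of 1.79 (1.57 to 2.04). With both names summed, miR-16 had a ratio of 2.20 (2.13 to 2.27).

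miR-195 is known in mouse heart for holding muscle cells out of the cell cycle after birth, and miR-497 is made beside it. miR-195 had 1471 reads (1726 RPM) in the 180-day and 5905 reads (785 RPM) in the 30-day library, a ratio of 2.20 (2.08 to 2.33). miR-497 had 645 reads (757 RPM) in the 180-day and 2344 reads (311 RPM) in the 30-day library, a ratio of 2.43 (2.22 to 2.65). Both were called higher, and their intervals overlap each other.

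miR-15a and miR-15b, the neighbours of the miR-16 copies, had the smaller ratios among the main arms. miR-15b had 935 reads (1097 RPM) in the 180-day and 5564 reads (739 RPM) in the 30-day library, a ratio of 1.48 (1.38 to 1.59). miR-15a had 363 reads (426 RPM) in the 180-day and 2200 reads (292 RPM) in the 30-day library, a ratio of 1.46 (1.30 to 1.63). Neither reached 2, and their intervals lie below those of miR-16, miR-195 and miR-497.

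**Figure D1:**
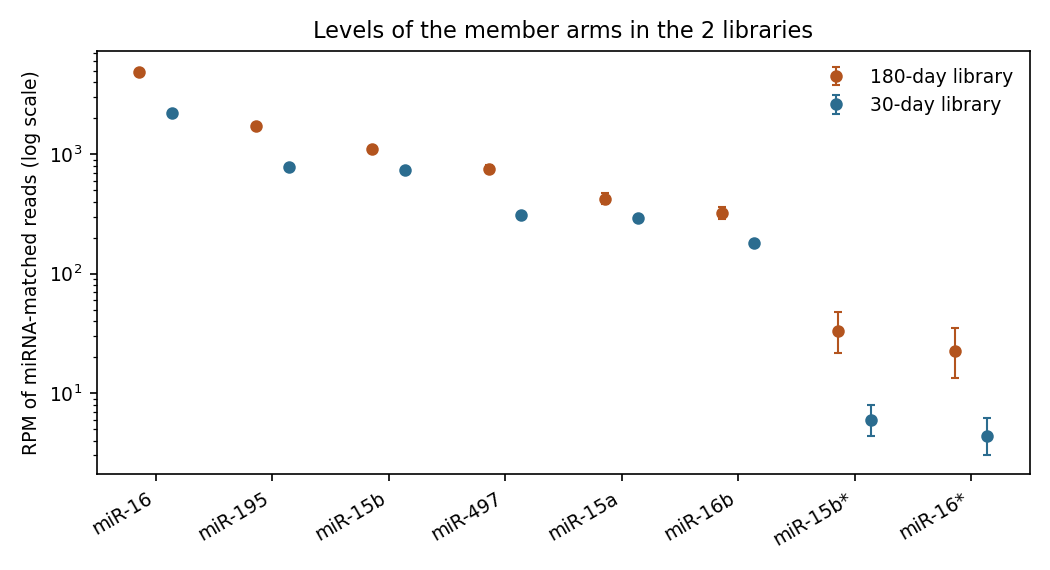
RPM of each measured member arm on a log scale in the 180-day library (orange, left of each pair) and the 30-day library (blue), with exact 95% Poisson intervals of the read counts. All 8 arms sit higher at 180 days. Counted over all listed reads, the order of the 5 main arms, miR-16 with 4932 and 2209 RPM first and miR-15a with 426 and 292 RPM last, is the same in both libraries.

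The order of the main arms was miR-16, miR-195, miR-15b, miR-497 and miR-15a in both libraries, with miR-16b counted as miR-16. Neighbours were close in 2 places at 30 days. miR-15a had 0.563 reads per miR-497 read (0.494 to 0.641) at 180 days and 0.939 (0.885 to 0.995) at 30 days. miR-15b had 0.636 reads per miR-195 read (0.585 to 0.690) at 180 days and 0.942 (0.908 to 0.978) at 30 days. No interval of neighbours in this order included 1 in either library.

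Of the 12 names and arms, 8 had the 20 reads over both libraries needed for a ratio. Of these, 5 were called higher (miR-16, miR-195, miR-497 and the star arms of miR-15b and miR-16) and 0 lower, while 3 were neither (miR-15a, miR-15b and miR-16b). Over all 469 names and arms measured, 29.4% were called higher and 11.3% lower, 40.7% in either direction. These shares depended on the rarer names. With a minimum of 100 reads, which leaves the star arms unmeasured, 3 of 6 members were called higher and 0 lower. Over all 327 names with that minimum, 23.5% were called higher and 14.7% lower. The median log2 ratio was 1.15 over the 8 members and 0.22 over all 469. The members are not independent, since miR-16 and miR-16b are forms of the same molecule and both star arms come from precursors of main arms in the list.

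These calls depended on the scaling. With the TMM factors of edgeR, which shift every log2 ratio by -0.32, only the 2 star arms were still called higher, and miR-16, miR-195 and miR-497 had ratios of 1.78, 1.76 and 1.94. With the median-of-ratios factors of DESeq2, which shift them by -0.23, miR-497 and the 2 star arms were called higher, with miR-16 at 1.91 and miR-195 at 1.88. Over all names the split was 138 higher and 53 lower by miRNA totals, 106 and 86 with TMM, 118 and 77 with median-of-ratios, and 27 and 396 with the lowest whole-library totals. With those totals the 8 members had ratios of 0.174 to 0.657, and 6 of them were called lower. The members stood above the median of all names under each of these scalings, since a scaling moves every name by the same amount.

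**Figure D2:**
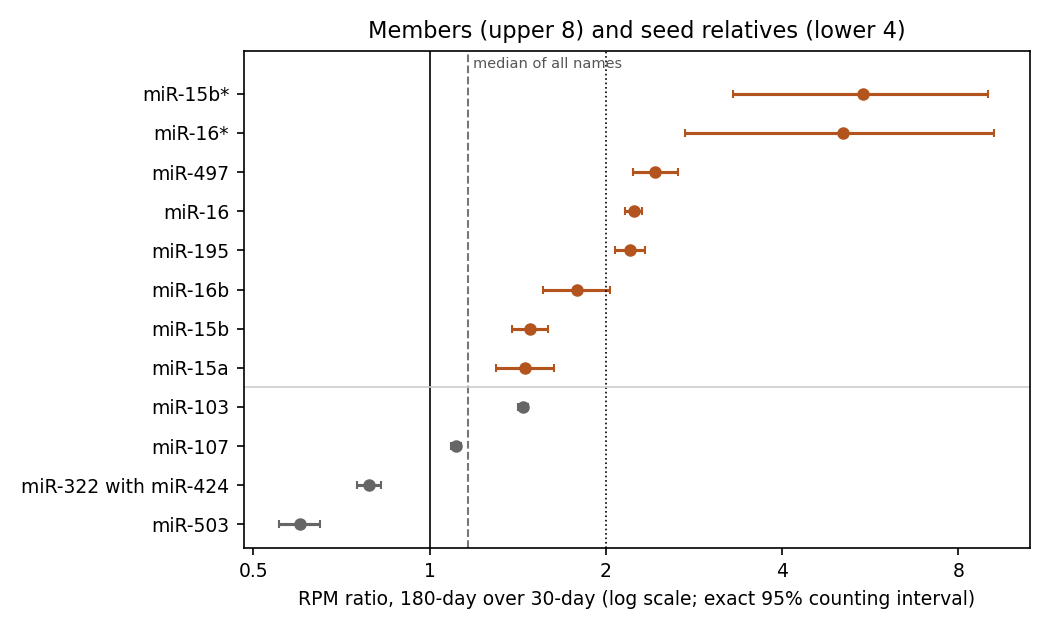
RPM ratio of the 180-day over the 30-day library, on a log axis with exact 95% counting intervals, for the 8 measured member arms (orange) and 4 relatives of the seed (grey). The solid line is 1, the dotted line the ratio of 2 used for a call, and the dashed line the median of all 469 names; miR-16, miR-195 and miR-497 lie between 2.20 and 2.43, and miR-15a and miR-15b at 1.46 and 1.48.

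Ratios between members of a library do not depend on the scaling between libraries, and they separated miR-15a and miR-15b from miR-16. miR-15a had 0.0811 reads per miR-16 read (0.0726 to 0.0902) in the 180-day and 0.122 (0.117 to 0.128) in the 30-day library, which is 0.663 times the 30-day value (0.589 to 0.745). miR-15b had 0.209 reads per miR-16 read (0.194 to 0.224) in the 180-day and 0.309 (0.30 to 0.319) in the 30-day library, which is 0.675 times the 30-day value (0.624 to 0.729). Relative to miR-16, which is made by both gene pairs, its neighbours miR-15a and miR-15b were thus lower at 180 days by about the same factor. Here and below, reads of miR-16 include those of miR-16b. The exceptions are RPM ratios per listed name and reads said to be listed as miR-16.

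The other ratios were close in both libraries. miR-15a had 0.388 reads per miR-15b read (0.343 to 0.439) at 180 days and 0.395 (0.376 to 0.415) at 30 days. miR-195 had 0.328 reads per miR-16 read in each library, with intervals of 0.309 to 0.349 at 180 days and 0.319 to 0.338 at 30 days. This equality was of all listed reads. With perfect matches only, the RPM ratio was 2.51 (2.41 to 2.62) for reads listed as miR-16 and 1.98 (1.66 to 2.35) for miR-16b. For miR-195 it was 2.20 (2.02 to 2.39), an interval below that of miR-16. Reads of miR-195 per miR-16 read were not recomputed with that setting. Within the MIR195 and MIR497 pair, miR-497 had 0.438 reads per miR-195 read (0.399 to 0.481) at 180 days and 0.397 (0.378 to 0.416) at 30 days, and the interval of 180-day over 30-day values, 0.994 to 1.23, included 1.

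**Figure D3:**
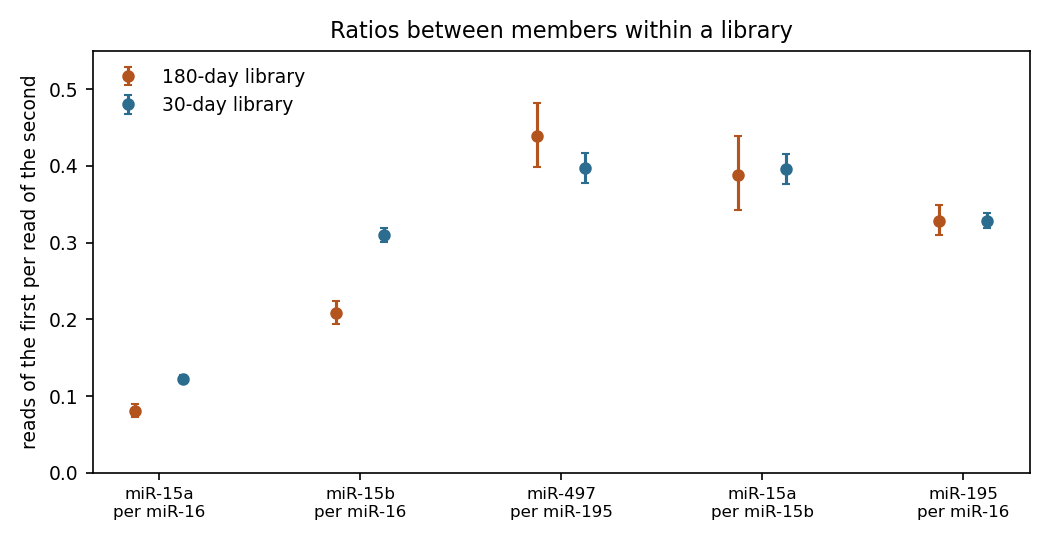
Reads of the first miRNA per read of the second within the 180-day library (orange, left) and the 30-day library (blue), with exact 95% intervals. The 2 ratios to miR-16 on the left are lower at 180 days (0.0811 against 0.122, and 0.209 against 0.309), while the 3 others have overlapping intervals.

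The makeup of the family differed by a few percentage points. miR-16 made up 56.7% of the main arm reads (55.6 to 57.8%) at 180 days and 52.9% (52.4 to 53.4%) at 30 days. miR-15b made up 11.8% (11.1 to 12.6%) and 16.4% (16 to 16.8%), and miR-15a 4.60% (4.15 to 5.09%) and 6.47% (6.21 to 6.74%), at 180 and 30 days. miR-195 and miR-497 held 18.6% and 8.17% at 180 days, against 17.4% and 6.89% at 30 days.

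The largest ratios were those of the rare star arms, which come from the other strand of the precursor hairpin. The star entry of miR-15b and the star entries of the copies of miR-16, named as in human, are shown. The star entries of miR-16 differ between its human precursors, where the main arm does not. Reads are given by listed name, and whether they tell the pig precursors apart was not tested.
miR-15b*: cGAATCATtatttgctgctcta
miR-16-2*: cCAATATTactgtgctgcttta
miR-16-1*: cCAGTATTaactgtgctgctga

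Bases 2 to 8 are again in capitals and are not those of the main arms. miR-15b* had 28 reads (32.9 RPM) in the 180-day and 45 reads (5.98 RPM) in the 30-day library, a ratio of 5.49 (3.30 to 9.0). miR-16-2*, whose human precursor is the neighbour of miR-15b, had 16 reads (18.8 RPM) in the 180-day and 24 (3.19 RPM) in the 30-day library, a ratio of 5.89 (2.92 to 11.6). miR-16-1*, whose human precursor is the neighbour of miR-15a, had 3 and 8 reads at 180 and 30 days, a ratio of 3.31 (0.566 to 13.8). miR-15a* had 0 reads at 180 days, where 3 reads would be 3.52 RPM, and 9 reads (1.20 RPM) at 30 days, so a difference was not detectable at this depth.

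The share of the star arm had intervals that did not overlap between the libraries for miR-15b only. It was 2.91% of miR-15b reads (1.94 to 4.17%) at 180 days and 0.802% (0.586 to 1.07%) at 30 days. With perfect matches only it rested on few reads and was 1.24% (0.501 to 2.54%) at 180 days and 0.154% (0.0500 to 0.359%) at 30 days. For miR-16 it was 0.467% (0.289 to 0.713%) at 180 days and 0.227% (0.163 to 0.308%) at 30 days, and with perfect matches only 0.0645% and 0.0508%, on 2 and 6 reads. None of the reads listed as miR-16-2* matched that entry perfectly, and reads of miR-16* and miR-16b* are counted together here. miR-497* had 1 read at 180 days and 2 at 30 days, and miR-195* had 0 and 2. For miR-195 at 180 days, 0 of 1471 reads allows a star share of up to 0.204%, taken as 3 reads, or 0.25% by the exact interval.

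Other miRNAs carry the same seed, so the reads with AGCAGCA at bases 2 to 8 were summed by sequence, whatever their name. They had 11075 RPM in the 180-day and 7183 RPM in the 30-day library, a ratio of 1.54 (1.51 to 1.58). The 5 members supplied 80.0% of these reads (79.2 to 80.8%) at 180 days and 60.9% (60.5 to 61.3%) at 30 days. The rest was almost wholly listed as miR-322 or miR-424, names for the same miRNA in rodents and in human, whose most read tag is shown with the same seed in capitals.
miR-322 with miR-424: cAGCAGCAattcatgttttga

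That tag held 61.6% of the reads of these names at 180 days and 60.8% at 30 days. Among reads with the seed, miR-322 with miR-424 had 2158 RPM (19.5% of them) in the 180-day library and 2766 RPM (38.5%) in the 30-day library, a ratio of 0.780 (0.743 to 0.818). Reads with the seed named miR-16 held 45.9% at 180 days and 32.4% at 30 days. The leading name of the seed was therefore miR-16 at 180 days, and miR-322 with miR-424 at 30 days. With perfect matches only the ratio of all seed reads was 2.10. That filter leaves out the most read tag of miR-322 with miR-424, which has 21 bases where the listed entries have 22. Of the member reads it keeps 63.5% at 180 days and 62.6% at 30 days. The part of this in the ratio of 2.10 was not tested.

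**Figure D4:**
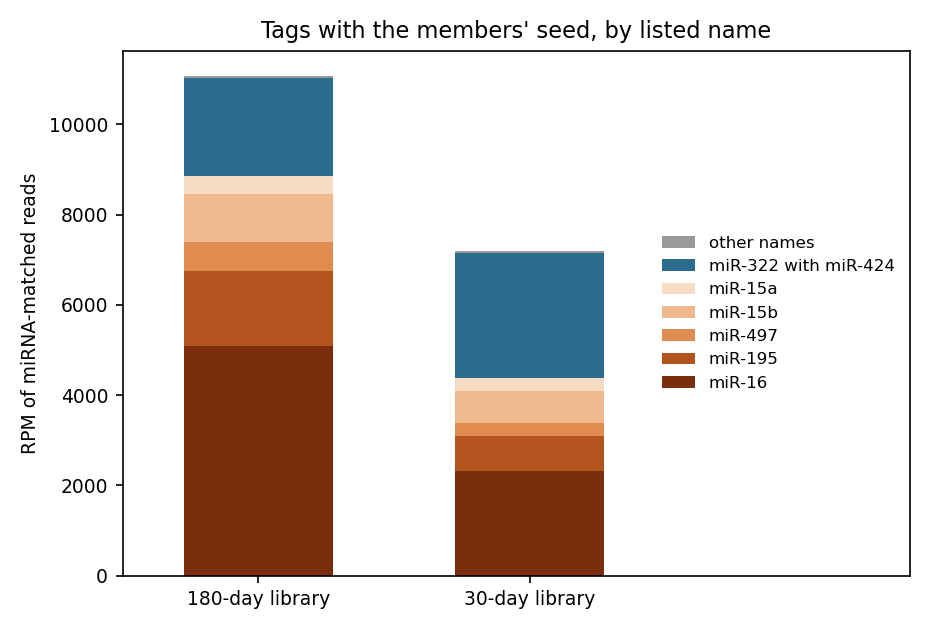
RPM of all tags with the shared seed in the 180-day (left) and the 30-day library (right), stacked by listed name, with miR-16b counted as miR-16. The column is 11075 RPM high at 180 days and 7183 at 30 days, with miR-322 with miR-424 (blue) at 2158 and 2766 RPM.

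Among the listed relatives, miR-503 and miR-322 with miR-424 had ratios under 1, and miR-103 had one within the intervals of miR-15a and miR-15b. miR-503, made from the same cluster as miR-424 in mammals, had 791 RPM at 180 days and 1318 RPM at 30 days, a ratio of 0.600 (0.554 to 0.649). miR-103 and miR-107, which carry the AGCAGC motif 1 base nearer their 5′ end, had ratios of 1.44 (1.41 to 1.47) and 1.11 (1.09 to 1.13). miR-646 had 1 read in all. Of the 10 relative names and arms, 0 of the 7 with 20 or more reads were called in either direction.

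Among names with 1000 or more reads, those with a log2 ratio nearest to the 1.04 of the summed members were miR-30c (1.05), miR-1957 (1.01), miR-30d (1.08), miR-151-3p (1.00) and miR-17 (0.96). Likeness here is the difference of a single log2 ratio over 2 libraries.

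Markers of cell types were read beside these ratios. The red blood cell list had 3933 RPM in the 180-day and 1742 RPM in the 30-day library, with 1 of 3 markers higher in RPM. This was miR-451 (3774 and 1535 RPM, ratio 2.46), and miR-144 and miR-486 had ratios of 0.853 and 0.697. For smooth muscle, the summed miR-143 and miR-145 had 17994 and 6581 RPM at 180 and 30 days, with 2 of 2 higher. The endothelial miR-126 had 629 and 381 RPM, and the white blood cell list had 1010 and 322 RPM with 3 of 5 higher. In that list miR-146b alone had 808 RPM at 180 days and 135 RPM at 30 days, while miR-155 had 8.21 RPM at 180 days and 19 RPM at 30 days.

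The mesenchymal list, miR-199a, miR-199b and miR-214, had 40571 RPM at 180 days and 62557 at 30 days, with 0 of 3 higher. The male germ cell list, miR-34b, miR-34c and miR-449a to miR-449c, had 35280 RPM at 180 days and 11.7 RPM at 30 days, with 5 of 5 higher, of which miR-449c had 2 reads in each library. The gonadal miR-202 had 110872 RPM at 180 days and 68481 RPM at 30 days. No marker was at 0 in either library. The part of these cell types in the members' ratios was not tested.

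The last base most often read differed among the members and was the same in both libraries for each. Tags were placed on the entries by bases 5 to 16, and the precursor sequence was not used, so encoded and added last bases were not told apart. miR-16 ended mostly at base 22, with 67.0% of reads (65.6 to 68.3%) at 180 days and 62.2% (61.5 to 62.9%) at 30 days. miR-15a and miR-497 ended mostly at base 21, which held 53.7% and 50.5% of their reads at 180 days, against 60.9% and 51.0% at 30 days.

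The 3 most read forms of miR-195 and of miR-15b are shown because those of each miRNA differ only at the 3′ end, with the seed in capitals.
miR-195, ending at base 22: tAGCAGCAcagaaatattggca
miR-195 and an A: tAGCAGCAcagaaatattggcaa
miR-195 and a T: tAGCAGCAcagaaatattggcat
miR-15b, ending at base 22: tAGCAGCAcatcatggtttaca
miR-15b, ending at base 21: tAGCAGCAcatcatggtttac
miR-15b, ending at base 20: tAGCAGCAcatcatggttta

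miR-195 was the member most often read with a base beyond base 22, in 40.2% of reads (37.7 to 42.8%) at 180 days and 36.4% (35.2 to 37.6%) at 30 days. The form with an A held 24.6% of all miR-195 reads (22.4 to 26.9%) at 180 days and 22.3% (21.2 to 23.4%) at 30 days. By the share of tags with an A after the full entry, miR-195 ranked first at 180 days and 6th at 30 days of 163 names with 100 or more reads in each library, whose median was 1.39% at 180 days and 1.01% at 30 days. The form with a T held 14.7% of miR-195 reads at 180 days and 13.1% at 30 days. Of the reads listed as miR-16, 11.9% at 180 days and 13.8% at 30 days had a T after the full entry, where the median over names was 1.08% and 1.21%. By this share miR-16 ranked 13th of the 163 names at 180 days and 6th at 30 days, and miR-195 ranked 5th and 7th.

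miR-15b had the largest difference in mean length among the main arms. Forms ending at base 19 or 20 made up 13.5% of its reads (11.4 to 15.8%) at 180 days and 21% (19.9 to 22.1%) at 30 days, while the form ending at base 22 made up 50.7% (47.4 to 53.9%) at 180 days and 44.1% (42.7 to 45.4%) at 30 days. In miR-15a the form ending at base 22 held 26.2% (21.7 to 31.0%) at 180 days and 16.7% (15.1 to 18.3%) at 30 days. The mean tag of miR-15b was 0.236 nucleotides longer at 180 days and that of miR-15a 0.136. Longer tags at 180 days were general in these libraries: 136 of the 163 names had a longer mean tag, with a median difference of 0.0988 nucleotides, and miR-15b ranked 35th and miR-15a 68th by that difference.

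**Figure D5:**
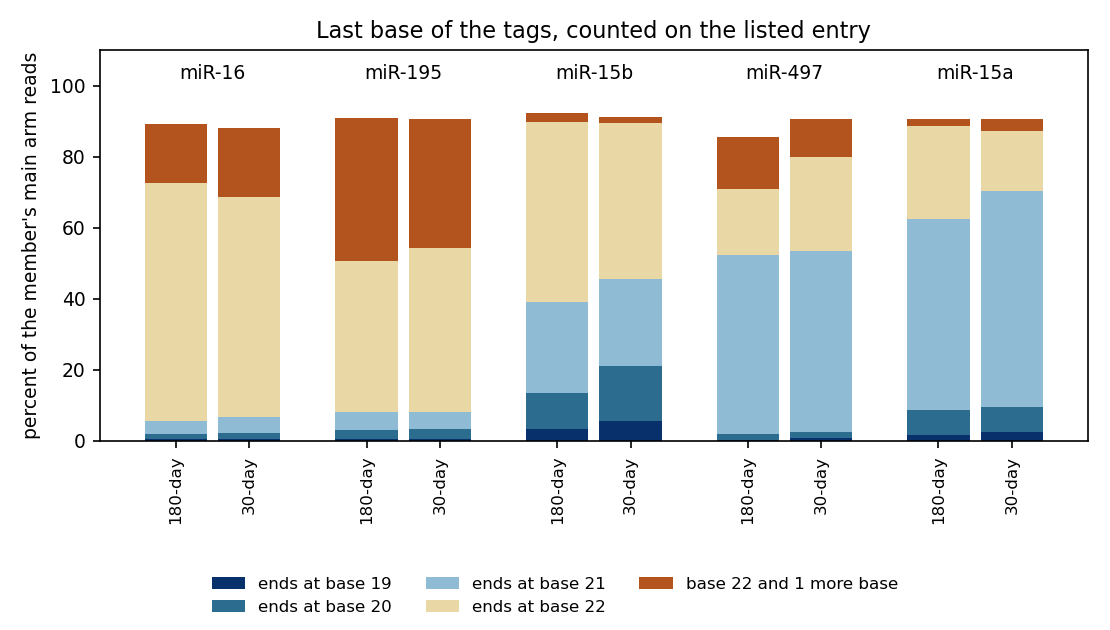
Percent of each member's main arm reads by the last base of the tag, counted on the listed entry, in the 180-day (left bar) and the 30-day library (right bar); the gap to 100 is reads with changed bases or other ends. miR-195 has the largest share with 1 more base after base 22 (40.2% at 180 days and 36.4% at 30 days), and miR-15b has fewer reads ending at base 19 or 20 at 180 days (13.5% against 21%).

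At the 5′ end the members were uniform except for miR-497. Between 92.3% and 95% of the reads of miR-15a, miR-15b, miR-16 and miR-195 began at the first base of the entry in either library. In miR-497 this share was 82.5% (79.3 to 85.3%) at 180 days and 89.1% (87.7 to 90.3%) at 30 days. A start 1 base later moves the seed, and the most read such tags of the 180-day and the 30-day library are shown with their own bases 2 to 8 in capitals.
miR-497 from base 2, at 180 days: aGCAGCACactgtggtttgtac
miR-497 from base 2, at 30 days: aGCAGCACactgtggtttgt

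Such tags held 10.1% of miR-497 reads (7.86 to 12.7%) at 180 days and 6.95% (5.96 to 8.06%) at 30 days, and the intervals overlap. The same share was 0.535 to 1.38% in the other members at 180 days and 0.417 to 0.999% at 30 days, and its median over the 163 names was 0.746% and 0.917%. By this share miR-497 ranked 13th of the 163 names at 180 days and 17th at 30 days, so other names shifted more. Late starts went with late ends in both libraries. Of the miR-497 reads that began 1 base later, 64.6% (51.8 to 76.1%) ended beyond base 22 at 180 days and 42.9% (35.2 to 50.9%) at 30 days. Of those with the usual start, 12% (9.39 to 15.1%) did so at 180 days and 10.5% (9.21 to 11.9%) at 30 days.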

How the data were processed

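The submitters' files list distinct sequence tags matched to known miRNAs. Per the labels' protocols, RNA of 18 to 30 nucleotides was selected, ligated to adapters, put through 15 cycles of PCR and read by an Illumina 1G instrument. Not given in the sources used here: aligner, miRBase release, genome build. The authors deposited raw read counts per tag, used without normalization, and lengths, matched bases and an alignment score, which the deposited lists give as 2 per match minus 1 per mismatch and 3 per unmatched base; the score served only for renaming tags.

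Reads were summed per name and arm as listed. Ratios and shares have exact (Clopper-Pearson) 95% intervals (Python 3.11.15, SciPy 1.17.1). Only the intervals and calls of the RPM ratios were tested on simulated counts, which held no PCR copies. The 20-read minimum, 3-read floor and fold of 2 define calls. Every member was named; relatives, markers and the 5 nearest ratios followed a fixed rule. Alternatives were TMM (edgeR 4.0.16), median-of-ratios (DESeq2 1.42.0), lowest whole-library totals (unlisted tags given the count of the next listed tag), tag filters, renaming by best match, other minimums and a fold of 1.5. Members and lists were chosen with earlier results of these data known.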

Additional observations from a re-analysis of the deposited data

How the results depend on the processing

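The summed ratio of the members, 2.06, was 1.64 with TMM, 1.76 with median-of-ratios, 2.23 with perfect matches only and 0.246 with the lowest whole-library totals, which turned it round. With those totals the called members also turned, to 0.657 (miR-15b*), 0.608 (miR-16*), 0.267 (miR-16), 0.263 (miR-195) and 0.291 (miR-497), with 0 members higher, 6 lower, and 27 names higher and 396 lower in all. Members called higher numbered 2 with TMM, 3 with median-of-ratios, 3 with perfect matches and 3 with a minimum of 100 reads. The last 2 leave the star arms unmeasured.

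Over all names, the number higher was 69 with perfect matches, 251 with no minimum and 77 with a minimum of 100 reads. The number lower was 86 with TMM, 33 with perfect matches and 84 at a fold of 1.5. Leaving out tags of 1 read, renaming by best match, or summing miR-16 with miR-16b (chosen after seeing the data) kept the members' counts of calls at 5 and 0.

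With perfect matches only, reads per miR-16 read were 0.0904 (miR-15a) and 0.180 (miR-15b) at 180 days, and 0.142 and 0.275 at 30 days. miR-497 per miR-195 read was 0.614 at 180 days and 0.582 at 30 days, and the ratio of seed reads was 2.10. Star shares were 1.24% and 0.154% (miR-15b) and 0.0645% and 0.0508% (miR-16) at 180 and 30 days, 0 for miR-497 in both, and 0 for miR-195 at 30 days. Without tags of 1 read, 1 start or end share of each main arm was recomputed (miR-15a ending at base 22, miR-15b at base 19 or 20, miR-16 and miR-195 with 1 more base, miR-497 from base 2), and these moved by less than their intervals.

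Restriction to pig names gave no value for the members. No paired analysis was possible because each age has 1 library. The 180-day depth limits the star arms most.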

Other observations

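Reads with exactly 1 base differing from the entry within its first 20 bases made up 9.15% of miR-497 reads (7.04 to 11.6%) in the 180-day library and 4.91% (4.07 to 5.86%) in the 30-day library. In miR-15a, miR-15b, miR-16 and miR-195 they made up 4.41 to 5.29% at 180 days and 4.80 to 5.89% at 30 days. Counted from 1 at the 5′ end of the entry, with its base first, the most frequent changes in miR-497 at 180 days were T17C and T17G with 7 reads each, and T17C led at 30 days with 15 reads.

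The lists also held reads under the names miR-15c (3 at 180 days and 37 at 30 days) and miR-16c (0 at 180 days and 11 at 30 days), which the rule for members leaves out.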
